A study of Mus musculus with 3 samples.

Results

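Expression of 39 genes that build and drive mitosis was followed in the skin of inbred FVB mice shortly before birth (embryonic day 18.5, E18.5), 3 days after it (P3) and in adults aged 10 weeks (10wk). The list held mitotic cyclins and kinases, kinetochore and checkpoint proteins, spindle motors and cytokinesis proteins, regulators of anaphase and 2 chromosome proteins. It was chosen with earlier results of these data known, and each gene was looked up by its symbol. All 39 were found among the 21877 gene rows that the 3 tables share, and all 39 were among the 14662 genes with at least 1 FPKM (fragments scaled to transcript length and to the number of mapped fragments) at 1 or more ages. The column headers call the mice WT, and the labels give no treatment at any age. Each table holds 1 value per gene, headed as an average, while the design text gives 2 biological replicates for each age. No value of a single animal was used here, so no difference below has a standard deviation, an interval or a p-value, and none could be set against the spread between animals.

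Cells enter mitosis when the kinase Cdk1, bound to A- and B-type cyclins, becomes active. Chromosomes are then attached to spindle microtubules at their kinetochores, a checkpoint holds the cell until every kinetochore is attached, and the anaphase-promoting complex afterwards marks cyclin B and securin for destruction so that sister chromatids part. The RNAs of most of these genes are known to accumulate late in the cell cycle and to be scarce in resting cells. In skin, division takes place mainly in the basal layer of the epidermis and, during hair growth, in the matrix of the hair bulb.

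The mitotic genes stood at similar levels before and shortly after birth and at far lower levels in the adult. The 39 values summed to 943 FPKM at E18.5, 957 FPKM at P3 and 202 FPKM at 10 weeks, with medians of 19.2, 19.97 and 4.08 FPKM. Among all gene rows the median member ranked at percentile 81.8 at E18.5, at 80.1 at P3 and at 49.4 at 10 weeks. Every member had its lowest value at 10 weeks. The highest value was at P3 for 25 members and at E18.5 for the other 14.

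**Figure D1:**
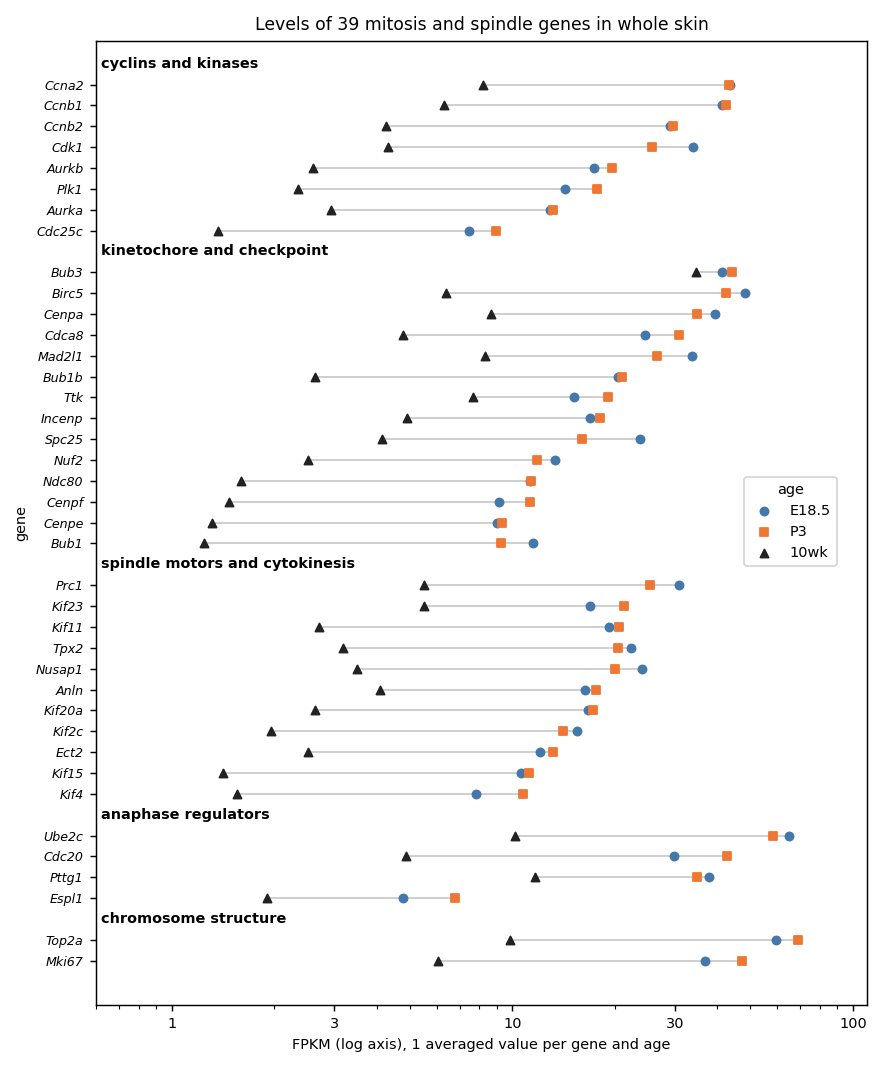
FPKM of each of the 39 genes on a log axis at E18.5 (circles), P3 (squares) and 10wk (triangles), 1 averaged value per age, ordered by P3 level within each group. The early ages lie close together in every row and the 10wk value is the lowest in all 39, with Bub3 the member whose 3 values lie nearest to each other.

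The ages were compared as log2 of (FPKM + 1) at the later age minus the same at the earlier age, and a gene counted as higher or lower once this reached 1 in size, which is 2-fold on this scale. The added 1 understates the change of genes with few FPKM. At P3 against E18.5, 0 of 39 members were called higher, where 9.56% of all compared genes were, and 0 were called lower, where 9.42% were. The median member difference was 0.04, which turned to -0.07 when the tables were scaled on the median of ratios, and the median over all compared genes was 0.03. At 10 weeks against P3, 38 of 39 members were lower, against 9.98% of all compared genes, and 0 were higher, against 19.8%. The median member difference was -2.25, and 2.65% of all compared genes lay below that value, while the median over all genes was 0.14. At 10 weeks against E18.5, 36 of 39 were lower, against 6.92% of all genes, and 0 higher, against 16.1%, with a median of -2.26 for the members and of 0.22 for all genes. The last comparison shares each of its values with one of the others and is not a separate observation. These shares of all compared genes also stand beside the counts of each member group below and the member counts of the closing section.

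**Figure D2:**
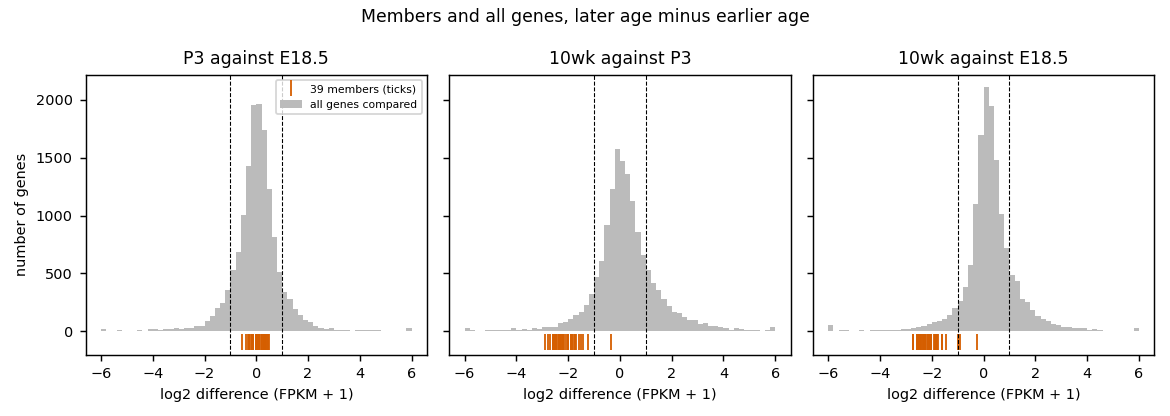
Histograms of the log2 difference of (FPKM + 1) over all compared genes for the 3 pairs of ages, with values beyond 6 drawn at the edge, and the 39 members as ticks under each. Dashed lines mark a 2-fold difference. The ticks lie between -0.54 and 0.50 at P3 against E18.5, and between -2.90 and -0.34 at 10wk against P3.

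Among cyclins and kinases, all 8 members were lower at 10 weeks than at P3, with differences between -2.57 and -1.85. Cyclin A2, Ccna2, which serves S phase and the entry into mitosis, stood at 43.5 FPKM at E18.5, 43.3 FPKM at P3 and 8.17 FPKM at 10 weeks. The B-type cyclins that carry Cdk1 through mitosis showed the same course, Ccnb1 with 41.3, 42.5 and 6.31 FPKM and Ccnb2 with 29.1, 29.5 and 4.26 FPKM. The early values of these cyclins lay within 3% of each other, and the adult value was 14.4% of P3 for Ccnb2, 14.8% for Ccnb1 and 18.9% for Ccna2. The ratio of Ccnb1 to Ccnb2, both measured per transcript length, was 1.42, 1.44 and 1.48 at the 3 ages. Cdk1 itself differed more between the early ages, with 34.0 FPKM at E18.5, 25.8 FPKM at P3 and 4.32 FPKM at 10 weeks. It therefore had its highest value before birth, whereas Cdc25c, the phosphatase that activates Cdk1, stood at 7.46, 8.95 and 1.37 FPKM with its highest value at P3.

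Polo-like kinase Plk1, which acts from mitotic entry to cytokinesis, stood at 14.2, 17.8 and 2.35 FPKM at E18.5, P3 and 10 weeks. Aurora kinase Aurkb, the enzyme of the chromosomal passenger complex, was at 17.4, 19.6 and 2.60 FPKM. Aurka, which acts at centrosomes and spindle poles, was at 12.9, 13.1 and 2.93 FPKM. Aurka was thus the lower of both kinases at the early ages and the higher in the adult, the Aurka to Aurkb ratio being 0.744, 0.670 and 1.13. The adult level of Aurka was 22.3% of P3, and that of Aurkb 13.2%. Whether this exceeds the difference between animals could not be tested.

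Of the 14 kinetochore and checkpoint genes, 13 were lower at 10 weeks than at P3, with a median difference of -2.02 and a range of -2.60 to -0.34. Bub1b, the checkpoint protein BubR1 that binds Cdc20, stood at 20.5, 21.0 and 2.63 FPKM at E18.5, P3 and 10 weeks, and the kinase Bub1 at 11.5, 9.28 and 1.24 FPKM. Bub3, the small WD-repeat partner that brings both to kinetochores, stood at 41.1, 44.2 and 34.7 FPKM. Bub3 in the adult was at 78.6% of its P3 level, a difference of -0.34, and it was the only member under 2-fold at 10 weeks against P3. Its ratio to Bub1 at the 3 ages was 3.58, 4.76 and 27.9, and its ratio to Bub1b was 2.01, 2.101 and 13.2.

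The checkpoint kinase Ttk, known as Mps1, and the checkpoint protein Mad2l1, known as Mad2, kept more of their early level than most members. Ttk stood at 15.1, 19.1 and 7.65 FPKM at the 3 ages, so that its adult level was 40.0% of P3 and its ratio to Bub1 was 1.32, 2.06 and 6.16. Its difference at 10 weeks against P3 was -1.22, a call that a pseudocount of 5 ends (-0.93), and against E18.5 it was -0.90, under 2-fold but past it with the median of ratios (-1.10). Mad2l1 stood at 33.8, 26.6 and 8.32 FPKM, with an adult level at 31.3% of P3.

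The outer kinetochore is held to microtubules by the Ndc80 complex, of which 3 subunits are members. Ndc80 stood at 11.3, 11.3 and 1.59 FPKM at E18.5, P3 and 10 weeks, Nuf2 at 13.3, 11.8 and 2.52 FPKM, and Spc25 at 23.7, 16.0 and 4.14 FPKM. Spc25 had the lowest P3 to E18.5 ratio of all members, 0.674, and the ratio of Spc25 to Nuf2 was 1.78, 1.36 and 1.65. The centromeric histone variant Cenpa stood at 39.4, 34.7 and 8.66 FPKM. Cenpe, a kinetochore kinesin, was at 9.04, 9.33 and 1.31 FPKM, and the large kinetochore protein Cenpf at 9.12, 11.3 and 1.48 FPKM. Both were lower in the adult relative to P3, at 14.1% and 13.1%, than Cenpa at 24.9%.

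The partners of Aurkb in the chromosomal passenger complex did not share a single adult level relative to P3. Birc5, known as survivin, stood at 48.1, 42.4 and 6.37 FPKM, and Cdca8, known as borealin, at 24.5, 30.8 and 4.76 FPKM. Incenp, the scaffold that activates the kinase, stood at 16.9, 18.03 and 4.90 FPKM. Adult Birc5 and Cdca8 were at 15.02% and 15.5% of P3, near Aurkb, and adult Incenp was at 27.2%. Accordingly the ratio of Incenp to Aurkb over the 3 ages was 0.976, 0.920 and 1.89.

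All 11 spindle motors, microtubule organisers and cytokinesis proteins were lower at 10 weeks than at P3, with a median difference of -2.22. Kif11, the bipolar kinesin that pushes spindle poles apart, stood at 19.2, 20.6 and 2.70 FPKM at E18.5, P3 and 10 weeks. Kif15, a kinesin with a related task, stood at 10.6, 11.2 and 1.42 FPKM. Kif2c, a kinesin that takes microtubule ends apart, stood at 15.4, 14.1 and 1.95 FPKM, so that the adult levels of Kif11, Kif15 and Kif2c were all between 12.6% and 13.8% of P3. Tpx2, which activates Aurka and nucleates spindle microtubules, was at 22.3, 20.4 and 3.18 FPKM, and the microtubule bundler Nusap1 at 23.9, 19.97 and 3.51 FPKM.

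Among proteins of the central spindle and the contractile ring, Prc1, which crosslinks the antiparallel microtubules of the midzone, stood at 30.8, 25.4 and 5.49 FPKM at the 3 ages. The midzone kinesin Kif23 stood at 17.0, 21.3 and 5.52 FPKM, and the ring scaffold Anln, anillin, at 16.3, 17.6 and 4.08 FPKM. Adult levels were 21.7% of P3 for Prc1, 23.1% for Anln and 26.0% for Kif23. Ect2, the exchange factor that switches on RhoA at the cleavage plane, was at 12.03, 13.1 and 2.505 FPKM, or 19.1% of P3 in the adult, and the midzone motor Kif20a at 16.7, 17.2 and 2.63 FPKM, or 15.3%. These percentages carry no error, and the distance between them could not be tested.

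Kif4, a chromosome-borne kinesin, is the single member on chromosome X and stood at 7.83, 10.8 and 1.56 FPKM. Xist stood at 0.0433, 64.6 and 73.0 FPKM at E18.5, P3 and 10 weeks. The Y-linked Ddx3y stood at 24.1 and 0.0218 FPKM at E18.5 and P3 and was listed at 0 at 10 weeks. Sex and age cannot be told apart in comparisons with E18.5. Without chromosomes X and Y, 38 members remained, of which 37 were lower at 10 weeks than at P3 and 35 lower than at E18.5. Over all compared genes, 1425 and 951 were then lower in these comparisons, and with all chromosomes 9.98% and 6.92% were. Among members, leaving out X and Y only takes Kif4 out of the counts, so it cannot show how sex bears on the other members.

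Among regulators of anaphase, Cdc20 showed the lowest adult level of all members relative to P3, 11.4%. Cdc20, which activates the anaphase-promoting complex and is the target of the checkpoint, stood at 29.9 FPKM at E18.5, 42.8 FPKM at P3 and 4.89 FPKM at 10 weeks, a difference of -2.90 at 10 weeks against P3. Its P3 to E18.5 ratio of 1.43 was also the highest of the 39. Ube2c, a ubiquitin-conjugating enzyme of the complex, was the highest member at E18.5, with 64.9, 58.4 and 10.1 FPKM. Pttg1, securin, stood at 37.9, 34.8 and 11.7 FPKM, and Espl1, the protease separase that securin restrains, at 4.77, 6.797 and 1.91 FPKM. Securin RNA exceeded separase RNA 7.95-fold, 5.12-fold and 6.14-fold at the 3 ages. Espl1 at 10 weeks against E18.5 had a difference of -0.99, so that it, Ttk and Bub3 were the 3 members under 2-fold in that comparison, although Espl1 passed with the median of ratios (-1.15). At 10 weeks against P3 it was lower, with a difference of -1.42, and under 2-fold at -0.77 with a pseudocount of 5. With that pseudocount Kif4 and Cdc25c, both at -0.97, also missed 2-fold against E18.5.

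The chromosome proteins were among the most abundant members. Top2a, the topoisomerase that untangles chromosomes, had the highest value of all members at P3, with 59.5, 68.8 and 9.83 FPKM at E18.5, P3 and 10 weeks. Mki67, which coats mitotic chromosomes and is the antigen of the Ki-67 proliferation stain, stood at 36.7, 47.2 and 6.04 FPKM. Both lay a little higher at P3 than at E18.5, by 0.21 for Top2a and 0.36 for Mki67 on the log2 scale, both under 2-fold.

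Set side by side, 26 of the 39 members had between 10% and 20% of their P3 level in the adult, 5 between 20% and 25%, 6 between 25% and 35%, and 2, Ttk and Bub3, more. The order of levels among members was much the same at the early ages, with a Pearson r of 0.957 and a Spearman rho of 0.956 between log2 FPKM at P3 and E18.5 over the 39 genes, and 0.844 and 0.891 between 10 weeks and P3. These describe genes of the same tables and are not a test. From E18.5 to P3, all 39 stayed within 1.5-fold and 24 within 1.2-fold of each other in FPKM.

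**Figure D3:**
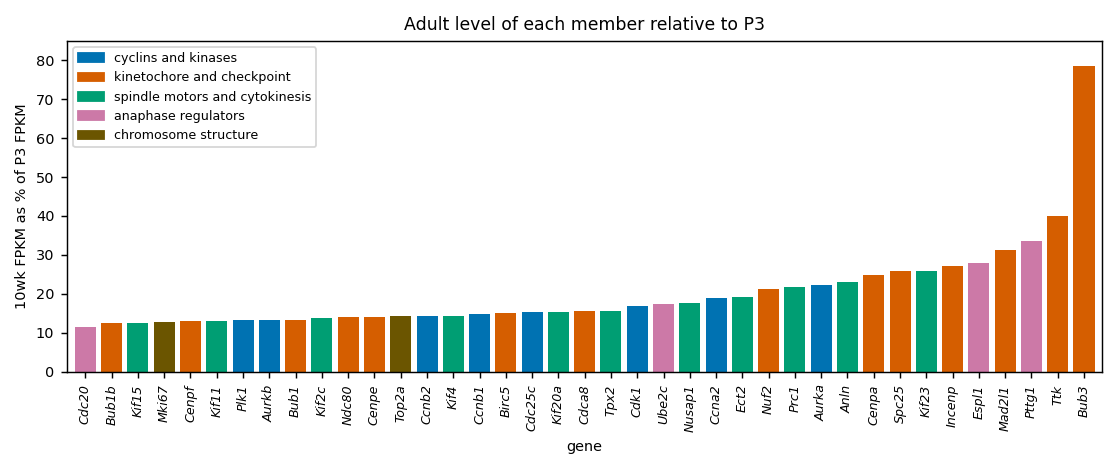
FPKM at 10wk as a percentage of FPKM at P3 for each of the 39 members, ordered from lowest to highest and coloured by group, 1 averaged value per age and no error. Cdc20 is lowest at 11.4% and Bub3 highest at 78.6%, with Ttk next at 40.0%.

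Each of the 4 members Ccna2, Kif20a, Nusap1 and Cdc20 is listed over a span that also holds other genes, so part of its reads could belong to a neighbour. In mm9 these are chromosome 3, 36451528 to 36470918 for Ccna2 with Exosc9, chromosome 4, 118100698 to 118109948 for Cdc20 with Elovl1, chromosome 2, 119435268 to 119475896 for Nusap1 with Oip5, and chromosome 18, 34758269 to 34811390 for Kif20a with Brd8 and Cdc23. Exosc9, an exosome subunit, stood at 17.4, 22.6 and 20.7 FPKM at E18.5, P3 and 10 weeks, and the fatty acid elongase Elovl1 at 139, 353 and 135 FPKM. Elovl1 thus had its highest value at P3, as Cdc20 did, and the part of shared reads in the Cdc20 values was not tested. Oip5, which helps to load Cenpa, stood at 6.83, 5.93 and 1.35 FPKM. Brd8, a chromatin protein, was at 13.9, 12.3 and 11.4 FPKM, and Cdc23, a subunit of the anaphase-promoting complex, at 22.5, 20.2 and 16.0 FPKM.

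The bulk tables do not tell whether fewer cells divided or whether each dividing cell held less of these RNAs. Other tissue components moved at the same time. The summed FPKM of 5 basal keratinocyte markers over the 3 ages was 2115, 5290 and 1614, and that of 5 hair matrix markers 34.7, 94.7 and 11.5. Krt5 and Krt14 made up most of the basal sum, with 2009, 5077 and 1462 FPKM together. The other basal markers were Trp63 at 43.4, 83.0 and 44.4 FPKM, Col17a1 at 30.1, 89.7 and 78.9 FPKM, and Itga6 at 31.7, 40.2 and 27.8 FPKM. Among hair matrix markers Shh did not rise at P3, with 11.2, 8.78 and 0.982 FPKM. Skeletal muscle markers summed to 3847, 319 and 15388 FPKM, adipocyte markers to 5689, 1720 and 7660 FPKM and dermal fibroblast markers to 3142, 1144 and 3590 FPKM, 5 markers each. The fibroblast markers did not move as one, since Dcn stood at 572, 205 and 2217 FPKM and Col1a1 at 1080.1, 412 and 354 FPKM. At 10 weeks against E18.5, 1 of these 5 was higher and 2 were lower, against 16.1% and 6.92% of all compared genes. The sums of 5 markers each for T cells were 2.40, 3.15 and 29.0 FPKM, for macrophages 100.3, 43.1 and 445 FPKM and for melanocytes 102, 255 and 23.0 FPKM. The suprabasal markers with values at all ages, 3 of 5, summed to 776, 5793 and 460 FPKM. At 10 weeks against P3, all 5 hair matrix, all 5 melanocyte, 3 of 3 suprabasal and 2 of 5 basal keratinocyte markers were lower. Of all compared genes 9.98% were. All 5 muscle, all 5 adipocyte, all 5 macrophage, 4 of 5 T cell and 3 of 5 fibroblast markers were higher, against 19.8% of all compared genes. The part of tissue make-up in the mitotic result was not tested.

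The members were also set against the basal keratins. Krt5 and Krt14, the keratin pair of the basal layer, were abundant in every table and summed to 2009 FPKM at E18.5, 5077 FPKM at P3 and 1462 FPKM at 10 weeks. Dividing by that sum moves every member by the same factor, so the scaled values carry the change of the keratins. On this scale the median P3 to E18.5 ratio was 0.408, with a range of 0.267 to 0.567. At 10 weeks the median ratio to P3 was 0.538, and 35 members were below 1, the others being Bub3 at 2.73, Ttk, Pttg1 and Mad2l1. The ratios depended on the marker chosen, as an alternative added after seeing the data showed. The other basal markers were Trp63, the p63 transcription factor, at 43.4, 83.0 and 44.4 FPKM, the hemidesmosome collagen Col17a1 at 30.1, 89.7 and 78.9 FPKM, and the integrin subunit Itga6 at 31.7, 40.2 and 27.8 FPKM. Divided by Itga6, the median P3 to E18.5 ratio was 0.813, with 4 members above 1, and the median 10wk to P3 ratio was 0.224. Divided by Trp63 these medians were 0.539 and 0.289, and divided by Col17a1 0.346 and 0.176. The median member was thus below 1 at 10 weeks against P3 on each of these scales.

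Other genes of cell division, 158 in 10 lists, differed in how far they followed. Of these, 157 were found, 8 of them under an older symbol. At P3 against E18.5, 0 of 157 were higher, against 9.56% of all compared genes, and 1 was lower, against 9.42%. The lower one was the G1 cyclin Ccnd3 with 69.3, 31.6 and 40.9 FPKM. At 10 weeks against P3, 90 of 157 were lower, against 9.98% of all compared genes, and 0 higher, against 19.8%. These shares also stand beside the counts of each list below. The median of the 157 was -1.17, against -2.25 for the 39 members. No test of that distance was possible.

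Among lists of mitotic proteins the medians at 10 weeks against P3 lay between -1.59 and -1.11. Condensins, which compact chromosomes, were lower at 10 weeks than at P3 in 6 of 8 cases with a median of -1.57, Ncaph first with 15.9, 15.2 and 2.63 FPKM. Other mitotic kinesins were lower in 6 of 8 (median -1.59), led by Kif22 with 17.4, 18.7 and 2.40 FPKM. Outer kinetochore and checkpoint genes were lower in 13 of 17 (median -1.35), Trip13, which recycles Mad2, standing at 7.22, 8.47 and 1.46 FPKM. Inner kinetochore genes were lower in 11 of 18 (median -1.11). In the spindle, centrosome and cytokinesis list 17 of 28 were lower (median -1.40), first Fam83d, a spindle protein, at 14.4, 24.96 and 3.15 FPKM.

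Genes of the anaphase-promoting complex and of cohesin had medians nearer to 0 than the members. Of 15 genes of the anaphase-promoting complex 1 was lower at 10 weeks than at P3, where 9.98% of all compared genes were, and the median was -0.02. The lower one was Fbxo5, an inhibitor of the complex, at 15.5, 11.1 and 3.42 FPKM. Beside that median, the adult levels of the members Cdc20, an activator of the complex, and Ube2c, an enzyme of it, were 11.4% and 17.4% of P3. Another activator, Fzr1, and another enzyme, Ube2s, belong to the list and lay under 2-fold (-0.78 and -0.61). These genes were picked after their values were seen. Cohesin genes were lower in 2 of 12 (median -0.57), Cdca5, sororin, first with 7.61, 8.93 and 1.69 FPKM. The replication and S-phase entry list had 18 of 23 lower (median -1.33), among them the ribonucleotide reductase subunit Rrm2 at 29.2, 45.7 and 8.36 FPKM. Of 5 G1 cyclins and their kinases 2 were lower (median -0.95), Ccnd1 first with 49.8, 75.2 and 24.1 FPKM.

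**Figure D4:**
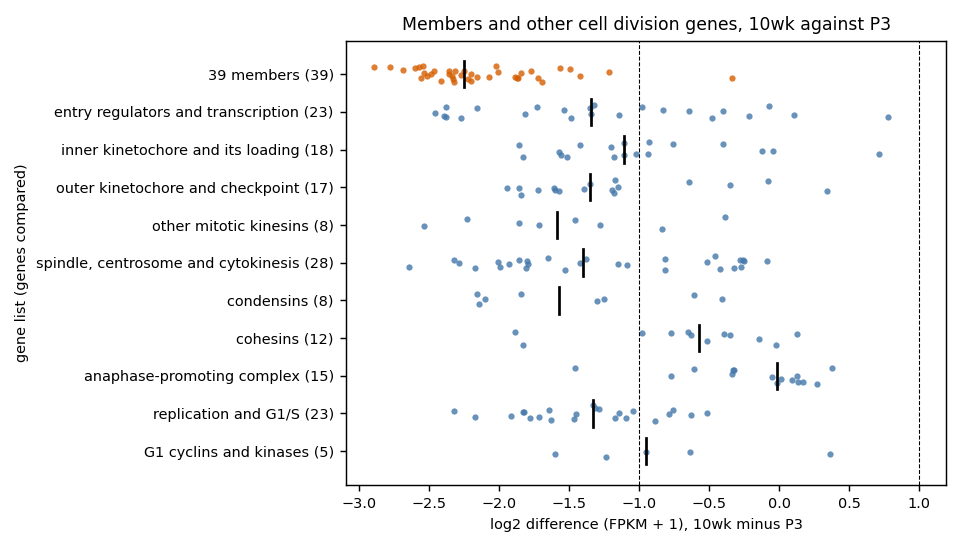
Log2 difference of (FPKM + 1) at 10wk minus P3 for each gene of the 39 members (top row) and of 10 other lists of cell division genes, with the number compared in brackets and the median of each row as a black bar. Dashed lines mark 2-fold. The members' median is -2.25, and the medians of the anaphase-promoting complex and the cohesins are -0.02 and -0.57.

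Regulators that switch mitotic genes on and off belonged to a list with 14 of 23 lower at 10 weeks than at P3 (median -1.34), led by the kinase Pbk with 21.1, 23.6 and 3.49 FPKM. The genes named next were picked after their values were seen. Foxm1, a forkhead activator of mitotic genes, stood at 11.3, 13.7 and 1.83 FPKM at E18.5, P3 and 10 weeks, and Mybl2, known as B-Myb, at 5.04, 8.59 and 0.844 FPKM. Lin54, the DNA-binding subunit of the MuvB core that carries B-Myb in dividing cells and repressors in resting ones, stood at 4.89, 7.71 and 4.58 FPKM, and its partner Lin37 at 9.02, 9.70 and 10.5 FPKM. The other core subunits were Lin9 at 6.71, 9.19 and 3.02 FPKM, Lin52 at 3.90, 3.895 and 7.38 FPKM, and Rbbp4, a histone-binding protein, at 61.2, 52.2 and 44.8 FPKM. At 10 weeks against P3, Lin9 was lower (-1.34), as were Foxm1 (-2.38) and Mybl2 (-2.38), while Lin54 (-0.64), Rbbp4 (-0.22), Lin37 (0.11) and Lin52 (0.78) lay under 2-fold.

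MuvB is known to bind the CHR, the cell cycle genes homology region, whose usual letters are TTTGAA, and NF-Y is known to bind CCAAT boxes upstream of it. The promoters of the members were searched for these letters on both strands, in RefSeq windows of GRCm38.p6 that run from 250 bases before to 50 bases after a gene's start. A window was found for 33 of the 39 members, and Aurkb, Ccna2, Cdc25c, Incenp, Kif20a and Tpx2 were not searched. The printed promoters are those of the member with the lowest adult level relative to P3 in each group, shown for the steepest falls. Then follow Ccnb1, as a cyclin without TTTGAA, and Bub3, as the member under 2-fold. Capitals mark TTTGAA and CCAAT on the strand shown, or TTCAAA and ATTGG where the match is on the other strand, and the start lies at the 251st base. The windows are chr7:122159185-122159484, plus strand, for Plk1, chr2:118597961-118598260, plus strand, for Bub1b, chr9:122950831-122951130, plus strand, for Kif15, chr4:118437294-118437593, minus strand, for Cdc20, chr7:135716330-135716629, minus strand, for Mki67, chr13:100786437-100786736, minus strand, for Ccnb1, and chr7:131560120-131560419, plus strand, for Bub3.
Plk1: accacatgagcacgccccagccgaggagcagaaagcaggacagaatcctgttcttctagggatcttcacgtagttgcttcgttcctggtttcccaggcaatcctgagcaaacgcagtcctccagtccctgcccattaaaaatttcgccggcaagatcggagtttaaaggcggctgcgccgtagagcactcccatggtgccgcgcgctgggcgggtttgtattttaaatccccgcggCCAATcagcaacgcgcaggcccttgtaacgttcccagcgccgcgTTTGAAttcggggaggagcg
Bub1b: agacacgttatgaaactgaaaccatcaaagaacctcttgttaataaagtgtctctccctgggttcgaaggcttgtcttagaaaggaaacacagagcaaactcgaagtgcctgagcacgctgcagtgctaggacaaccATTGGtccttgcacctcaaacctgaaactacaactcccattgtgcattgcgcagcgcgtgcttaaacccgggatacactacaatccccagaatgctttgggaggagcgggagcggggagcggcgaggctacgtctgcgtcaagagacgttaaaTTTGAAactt
Kif15: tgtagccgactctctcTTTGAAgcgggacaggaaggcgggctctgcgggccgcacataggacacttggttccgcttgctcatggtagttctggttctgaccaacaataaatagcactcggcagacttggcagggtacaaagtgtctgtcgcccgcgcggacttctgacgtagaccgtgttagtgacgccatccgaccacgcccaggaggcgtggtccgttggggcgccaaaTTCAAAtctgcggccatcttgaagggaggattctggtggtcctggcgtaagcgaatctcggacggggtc
Cdc20: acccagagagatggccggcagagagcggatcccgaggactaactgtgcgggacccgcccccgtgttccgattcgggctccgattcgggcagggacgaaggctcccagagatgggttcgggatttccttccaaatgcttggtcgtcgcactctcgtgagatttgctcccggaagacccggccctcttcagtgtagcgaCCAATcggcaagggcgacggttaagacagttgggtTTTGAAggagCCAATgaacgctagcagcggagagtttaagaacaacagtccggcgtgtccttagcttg
Mki67: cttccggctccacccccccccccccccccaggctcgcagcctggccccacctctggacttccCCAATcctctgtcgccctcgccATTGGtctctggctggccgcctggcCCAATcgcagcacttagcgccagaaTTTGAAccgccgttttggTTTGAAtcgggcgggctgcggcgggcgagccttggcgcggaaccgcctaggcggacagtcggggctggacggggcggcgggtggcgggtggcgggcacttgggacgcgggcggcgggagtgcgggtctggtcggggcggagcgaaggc
Ccnb1: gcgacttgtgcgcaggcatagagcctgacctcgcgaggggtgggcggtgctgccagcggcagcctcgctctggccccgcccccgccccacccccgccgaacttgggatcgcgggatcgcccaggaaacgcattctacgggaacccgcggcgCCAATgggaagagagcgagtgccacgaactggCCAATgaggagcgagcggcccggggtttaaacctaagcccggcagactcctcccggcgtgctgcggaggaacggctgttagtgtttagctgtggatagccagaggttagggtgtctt
Bub3: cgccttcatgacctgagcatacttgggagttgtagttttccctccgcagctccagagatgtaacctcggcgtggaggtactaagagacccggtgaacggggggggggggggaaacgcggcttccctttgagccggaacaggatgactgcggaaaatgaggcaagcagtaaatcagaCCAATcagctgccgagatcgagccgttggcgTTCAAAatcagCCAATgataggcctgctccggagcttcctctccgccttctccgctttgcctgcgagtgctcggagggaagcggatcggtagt

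The CHR letters were present in 25 of 33 member promoters (75.8%) and in 18.1% of all 27025 promoters, and among compared genes with a window in 12.2% of 10067. Within 50 bases on either side of the start they were in 23 of 33 members (69.7%), against 4.92% of all promoters. The CCAAT letters were in 24 of 33 (72.7%), against 37.9% of all promoters, and both motifs together in 21 of 33 (63.6%), against 7.12%. TTCGAA, a variant of the CHR, was in 3 of 33 (9.09%), against 1.57%. Other letters were chosen later. TTTAAA was in 9 of 33 (27.3%, all promoters 13.2%), and within 50 bases of the start in 6 of 33 (18.2%, all promoters 3.62%). The GC box GGGCGG was in 25 of 33 (75.8%, all promoters 35.9% but compared genes 61.8%) and TATAAA in 1 of 33 (3.03%, all promoters 14.2%). Base composition was not matched between the members and all promoters, and a match describes letters, not a bound site.

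**Figure D5:**
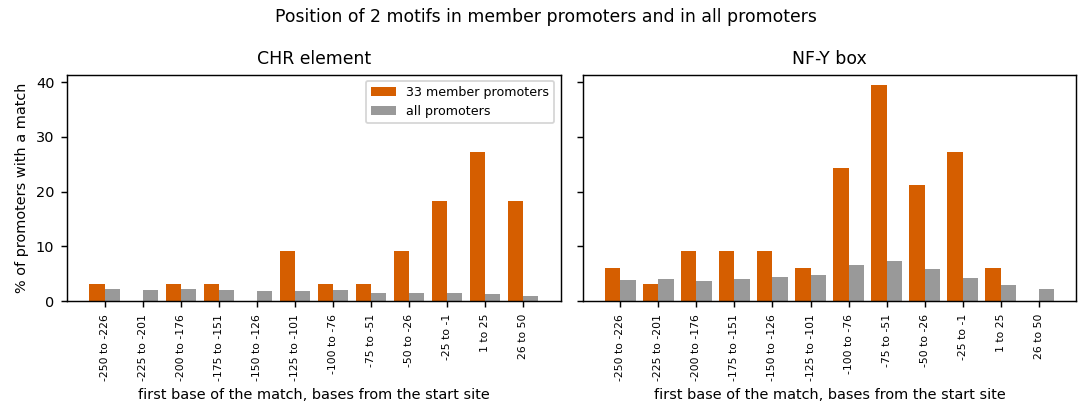
Percentage of the 33 member promoters and of all 27025 promoters with a match in each bin of 25 bases from the start site, for the CHR letters (left) and the CCAAT letters bound by NF-Y (right). Member CHR matches are densest between bases 1 and 25, 9 of 33 (27.3%, all promoters 1.25%), and member CCAAT matches between -75 and -51, 13 of 33 (39.4%, all promoters 7.28%).

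The place of the CHR differed between the printed promoters. Counting the start as base 1 and the base before it as -1, the match began at -18 in Cdc20, at 31 in Plk1 and at 41 in Bub1b. Both matches of Mki67 lay further upstream, at -116 and -98. In Cdc20 a CCAAT box followed closely and another preceded the CHR, as the capitals show. Bub3, the member with 78.6% of its P3 level in the adult, also held the CHR letters, beginning at -43, between 2 CCAAT boxes. Ccnb1, at 14.8%, held 2 CCAAT boxes and no TTTGAA, though its printed window holds TTTAAA in small letters. Whether TTTAAA serves as a CHR there was not tested. TTTGAA did not separate members by their adult level, the median being 15.5% of P3 for the 25 members with it and 16.3% for the 8 without. For TTTGAA within 50 bases of the start the order was the other way, 16.8% for the 23 with it and 14.9% for the 10 without. The 8 members without TTTGAA include Ccnb1, and Bub1, which holds the variant TTCGAA.

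Over all compared genes with a promoter window other than the members, 8.83% of 10034 were lower at 10 weeks than at P3. Among those with TTTGAA in the window the share was 13.2% of 1201, and among those with it within 50 bases of the start 22.8% of 281. Only the members were left out, so genes of the other cell division lists with a window were still counted. Of the 157 genes found in those lists, 90 were lower at 10 weeks than at P3. How far they make up the shares with TTTGAA was not tested. All these shares are descriptions of 1 pair of tables.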

How the data were processed

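RNA of whole skin was measured by sequencing at 3 ages, with 1 deposited table each. Per the labels' protocols, RNA was taken with Trizol and the Illumina TruSeq RNA kit served for the libraries. The deposited unit is FPKM, averaged per age by the authors, per the file headers. The submitters' processing notes name TopHat2 2.0.7, Cufflinks 2.1.1 and mm9. Gene models, strandedness and read numbers are not given in the labels or headers, so precision is unknown. For single-transcript genes under 0.3 FPKM, FPKM was multiplied by transcript length in kilobases. The product fell between 0.04 and 0.06 in 23.6% of 567 genes at 10 weeks, 8.89% of 934 at P3 and 7.11% of 970 at E18.5. It lay below 0.04 in 3.00%, 40.0% and 40.9% of them. The smallest values were thus rarer at 10 weeks, and no depth was derived.

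Values of 0 marked as failed (3 at E18.5, 7 at P3, none a member) were left out. Starts were raised by 1, since end minus start equalled the RefSeq length for 11 members and end minus start plus 1 for 0. Differences used a pseudocount of 1 and a minimum of 1 FPKM, in python 3.11.15 with pandas 2.3.3, and were tested on simulated data. The members and lists were chosen with earlier results of these data known. All members are named, and from other lists the gene with the largest change past 2-fold, here the fall at 10 weeks against P3. Some other genes of the lists were picked after their values were seen, as stated where they appear. The alternatives were other pseudocounts, minima and scalings, and leaving out chromosomes X and Y. A planned search for destruction motifs in proteins was not run. Some genes of the lists are not reported here.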

Additional observations from a re-analysis of the deposited data

How the results depend on the processing

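The counts of members called higher or lower, 0 and 0 at P3 against E18.5, 0 and 38 at 10 weeks against P3 and 0 and 36 at 10 weeks against E18.5, stayed within 1.5 times under all 7 alternatives fitted to them. Some of these could not change the call of a member. Every member exceeded 5 FPKM at 1 or more ages, so neither a minimum of 5 FPKM nor no minimum could. Leaving out chromosomes X and Y only removed Kif4. With a pseudocount of 5, Ttk (-0.93) and Espl1 (-0.77) were no longer lower at 10 weeks than at P3, nor Kif4 (-0.97) and Cdc25c (-0.97) than at E18.5. Against E18.5, Ttk was called lower with the median of ratios (-1.10) and the upper quartile (-1.19), and Espl1 with both (-1.15 and -1.23) and with a pseudocount of 0.1 (-1.28). The median member difference at P3 against E18.5 changed sign under the median of ratios (-0.07) and the upper quartile (-0.15), as did 12 and 14 single members, all under 2-fold. These scalings shift log2 ratios by -0.12 and -0.20 at P3 against E18.5, by -0.10 and -0.12 at 10 weeks against P3, and by -0.22 and -0.32 at 10 weeks against E18.5. Over all genes, a pseudocount of 0.1 gave 2155 lower at P3 than at E18.5. A pseudocount of 5 gave 842 higher and 626 lower at P3 against E18.5, 1596 and 898 at 10 weeks against P3, and 1274 and 561 at 10 weeks against E18.5. Of all called genes, the higher ones made up 50.4% at P3 against E18.5 and 38.1% with the upper quartile, and 69.9% at 10 weeks against E18.5 and 55.9% with it. Scaled on Trp63, Col17a1 or Itga6 in place of Krt5 and Krt14, chosen after seeing the data, the median member ratio of P3 to E18.5 was 0.539, 0.346 or 0.813 (0.408 on the keratins), and of 10wk to P3 0.289, 0.176 or 0.224 (0.538). No minimum changes no call, since a gene under 1 FPKM cannot reach 2-fold with the added 1. No paired analysis was possible because each age has 1 averaged value.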
